A study of Mus musculus with 4 samples.

Results

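Luminal progenitor-like cells were 104 of the 1133 keratin 8/18-positive luminal cells recovered from Trp53/Brca1-null mouse mammary glands about 2 weeks after gene deletion. They were chosen by measured values: among barcodes with 500 or more genes seen and no more than 10% mitochondrial counts, a cell needed at least 3 unique molecular identifiers (UMIs, counts of single RNA molecules) over Krt8 and Krt18, none of the leukocyte gene Ptprc, at least 3 over the progenitor genes Aldh1a3, Plet1, Csn3, Wfdc18, Elf5 and Kit, and at most 1 over the hormone-sensing genes Prlr, Pgr, Cited1, Areg and Cxcl15. The share was 9.18% (exact Clopper-Pearson 95% interval 7.56 to 11.01) of the luminal cells, among 1301 kept cells of 1453 barcodes in that library and 10781 barcodes in the series. Of the other luminal cells, 774 had a hormone-sensing sum of at least 2 and a progenitor sum of at most 1 and served as the comparison, 135 were over both sums, and 120 were in no class: 81 of these had a progenitor sum of 2 with a hormone-sensing sum of at least 2, and 39 were under both limits.

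The series comprised 4 single-cell RNA libraries of female mice of mixed genetic background carrying loxP-flanked (floxed) Trp53 and Brca1 and the YFP reporter Rosa26-Stop-YFP. Cre came from an adenovirus with a keratin 8 promoter (Ad-K8-Cre), injected into the milk ducts. YFP+ mammary epithelial cells were sorted at about 2 weeks, YFP+ cells together with CD45+ leukocytes at about 5 months, and DAPI-negative live cells from 2 tumours. All 4 libraries are labelled Trp53/Brca1-null and none comes from glands left intact; the leukocytes at 5 months and the tumour cells were not sorted by YFP per the labels, so the deletion is not shown for every cell. The K8 promoter limits Cre and the reporter to cells that use keratin 8, the luminal lineage. The number of mice behind each library is not given, and each condition before tumours is 1 library. Differences between cell classes or times therefore carry no test: intervals on CPM (a gene's UMIs scaled to a common total in every pool of cells) are exact 95% Poisson intervals, those on shares are exact binomial, and both cover counting error only.

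In the mammary duct, luminal progenitors are the hormone receptor-poor luminal cells, and their descendants include the alveolar cells that make milk under prolactin, acting through STAT5 and the factor Elf5. Their hormone-sensing neighbours carry the oestrogen, progesterone and prolactin receptors and signal to other cells through secreted factors such as amphiregulin. Luminal progenitors are widely regarded as the cells from which BRCA1-associated basal-like breast cancer starts.

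The 104 cells had a median of 3673.5 UMIs and 1544.5 genes, close to the 4023 UMIs and 1533 genes of the hormone-sensing cells, and their pooled counts were 469192 and 3457518 UMIs. A gene with 3 UMIs in the pool thus stood at 6.39 CPM in the progenitor-like cells and 0.868 CPM in the hormone-sensing cells. Of the barcodes at 2 weeks, 7 also occurred at 5 months, 4 in tumour 1 and 2 in tumour 2, and 1 of these belonged to the 104 cells. Trp53 had 102 CPM (75.4 to 136) in the progenitor-like and 48.3 (41.3 to 56.2) in the hormone-sensing cells, while Brca1 had 0 and 14 UMIs. Where the 3' tags lie relative to the deleted exons was not examined, so neither value checks the deletion.

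The genes that chose the cells are described first, without a test. Csn3, the casein of the milk micelle surface, had 5298 CPM (5092 to 5511) in the progenitor-like cells and 2.31 (0.999 to 4.56) in the hormone-sensing cells. Wfdc18, a secreted whey-acidic-protein family member, had 5168 and 4.92 CPM. Plet1, a surface protein of luminal progenitors, had 1569 and 59.3 CPM, and Aldh1a3, an enzyme that makes retinoic acid, had 409 and 1.45 CPM. The transcription factor Elf5 stood at 53.3 and 0.868 CPM, and the stem cell factor receptor Kit at 49.0 CPM against no UMI. Csn3 and Wfdc18 thus carried most of the sum, whereas Elf5 and Kit were thinly detected.

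Members differed widely in these genes. Per cell, Csn3 ranged from 0 to 216 UMIs with a median of 12 and was seen in 84 of 104 cells, and Wfdc18 ranged from 0 to 138 with a median of 15 and was seen in 100. Plet1 was seen in 92 cells (0 to 31 UMIs, median 5), Aldh1a3 in 43 (highest 23), Elf5 in 21 (highest 2) and Kit in 19 (highest 4). Of the 6 genes, 1 cell had a single one, 18 cells had 2, 38 had 3, 32 had 4, 10 had 5 and 5 had all 6. On the other axis, 85 cells had no UMI of the 5 hormone-sensing genes and 19 had 1. Pgr, the progesterone receptor, had no UMI in the 104 cells, which allows up to 6.39 CPM, against 139.7 CPM in the hormone-sensing cells. The prolactin receptor Prlr was seen in 6 cells, the oestrogen-responsive coregulator Cited1 in 3 and the growth factor Areg in 9.

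The progenitor sum ran from 3 to 243 UMIs with a median of 46.5, so few cells lay near its lower limit. Only 2 members had a sum of 3 to 5, and the next lowest had 9. Those 2 cells together had 70.9 CPM of Trf, a secreted iron carrier described below, and 1277 CPM of the hormone-sensing-rich growth factor gene Ptn. Just outside, the 6 cells with a progenitor sum of 2 and at most 1 hormone-sensing UMI had no Trf, 151 CPM of Fgfr2 and 1510 CPM of Ptn. The 8 cells with a hormone-sensing sum of 2 and a progenitor sum over the limit had 1309 CPM of Trf, close to the members, and 119 CPM of Fgfr2, which no member had.

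**Figure D1:**
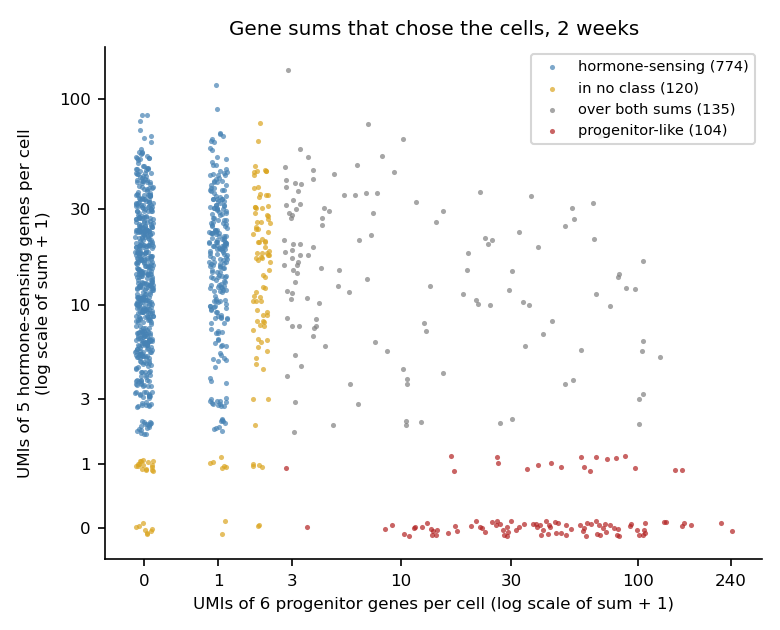
Each point is 1 of the 1133 luminal cells at 2 weeks, placed by its UMIs over the 6 progenitor genes (x) and the 5 hormone-sensing genes (y), both on a log scale of the sum + 1 with small random offsets. The 104 progenitor-like cells lie along the bottom with sums of 3 to 243, apart from the 774 hormone-sensing cells at the left, while 135 cells over both sums are spread between.

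The label was checked against how cells grouped without the rule. In Leiden clustering at resolution 1.0, 103 of the 104 cells fell in 1 of 11 clusters, which held 164 cells, among them 56 over both sums, 2 in no class and no hormone-sensing cell. At resolution 0.5, 103 fell in 1 of 8 clusters, and at 2.0 they divided into 63 and 40 cells in 2 of 21. The clusters used the rule's genes too, so this is a description. The cell left over sat with 68 hormone-sensing cells. None of the 104 was among the 15 barcodes with the highest doublet scores, against 6 of 774 hormone-sensing cells and 7 of the 135 cells over both sums. Those 15 were 1.15% of the 1301 kept cells, so none among 104 says little. The rule had also kept cells over both sums out of the members, which favours low doublet scores in advance.

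The question put to the 2 weeks library was in which further genes the progenitor-like cells differed from the hormone-sensing cells beside them. Outside the rule, 3060 genes reached 50 CPM in either class. Of these, 356 (11.6%) were at least 2-fold higher in the progenitor-like cells and 189 (6.18%) at least 2-fold lower, on a ratio of CPM + 1, with a median log2 ratio of 0.04 over all tested genes. Below, genes at 50 CPM in either class are called tested, and higher and lower mean past this size. A tested gene under 50 CPM in a class cannot be called higher in that class. With TMM scaling, which balances the bulk of genes between classes, 307 were higher and 223 lower with a median of -0.08. Adding the 56 cells over both sums that clustered with the members left 248 higher and 120 lower genes. The 135 cells over both sums had a median of 5373 UMIs, above the 3673.5 of the members.

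Progenitor genes outside the rule that reached 50 CPM were higher in the progenitor-like cells. These were 9 of 17, and all 9 passed the 2-fold size, beside the 11.6% of all tested genes, with a median log2 ratio of 5.46. Only Mfge8, Cd14 and Lypd3 reached 50 CPM in both classes. The rest did so only in the progenitor-like cells and could not have been called lower. Trf, the iron carrier transferrin, had 1336 CPM (1234 to 1445) against 3.47 (1.79 to 6.06), a 385-fold ratio (219 to 749). Lcn2, which binds bacterial iron carriers, had 1547 CPM against 17.6. Ltf, the iron-binding milk protein lactoferrin, had 89.5 CPM against no UMI, at least 103-fold higher. These 3 iron-handling genes were low or missing in the hormone-sensing cells.

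Mfge8, a milk fat globule protein that marks dying cells for uptake, had 1034 CPM (944 to 1130) against 58.4, and Cd14, the lipopolysaccharide co-receptor, had 1029 against 77.2. Rspo1, a secreted amplifier of Wnt signalling, had 217 CPM against 0.289 from 1 UMI, a ratio of 752 (132 to 29976). The tetraspanin Tspan8 (107 CPM against 1.45), the ETS factor Ehf (132 against 24.0) and the surface protein Lypd3 (256 against 75.5) were also higher. The remaining 8 stayed under 50 CPM in both classes, among them Sox10, a progenitor and neural crest factor (27.7 against 0.578), Foxc1 (27.7 against 0.868) and the integrin gene Itgb3 (4.26 against 0).

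Detection per cell gave the same picture for genes the rule did not use. After every cell was thinned to 2000 UMIs, which left out 21 progenitor-like and 108 hormone-sensing cells, Trf was seen in 69.9% (58.8 to 79.5) of 83 progenitor-like and 0.450% (0.0930 to 1.31) of 666 hormone-sensing cells. Lcn2 was seen in 77.1% and 2.55%, Cd14 in 74.7% and 13.4%, and Mfge8 in 81.9% and 8.41%. Before thinning the Trf shares were 74.0% of 104 and 1.29% of 774 cells. In the other direction Ptn, seen in 98.3% of hormone-sensing cells at a median of 17 UMIs, was seen in 14.4% of the progenitor-like cells at a median of 0. Free RNA from lysed cells can give such stray UMIs, and its part was not tested.

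Of the 12 genes with the largest ratios upward, several encode secreted or membrane proteins. Bglap3, an osteocalcin-related gene, had 607 CPM (539 to 682) against no UMI, at least 700-fold higher, yet it was seen in 42 of the 104 cells, with up to 43 UMIs in one. Fcgbp, a mucin-like secreted protein, had 315 CPM against 0.289 from 1 UMI, a ratio of 1091 (193 to 43365). Spp1, osteopontin, had 324 against 1.16, and the surface antigen gene Ly6i had 332 against 1.16. Spp1 was seen in 15 of the 104 cells, with up to 57 UMIs in 1 of them, so its level describes few cells. Wnt5b, a Wnt ligand, had 102 CPM against no UMI (at least 118-fold) and was seen in 40 cells with at most 2 UMIs each. Cldn1, a tight junction protein, had 93.8 CPM against no UMI (at least 108-fold), and the potassium channel gene Kcnn4 had 141 against 0.289 from 1 UMI, a ratio of 486 (84.3 to 19498). Bglap3 and Wnt5b were thus seen in similar numbers of cells, Bglap3 with more UMIs in some of them.

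**Figure D2:**
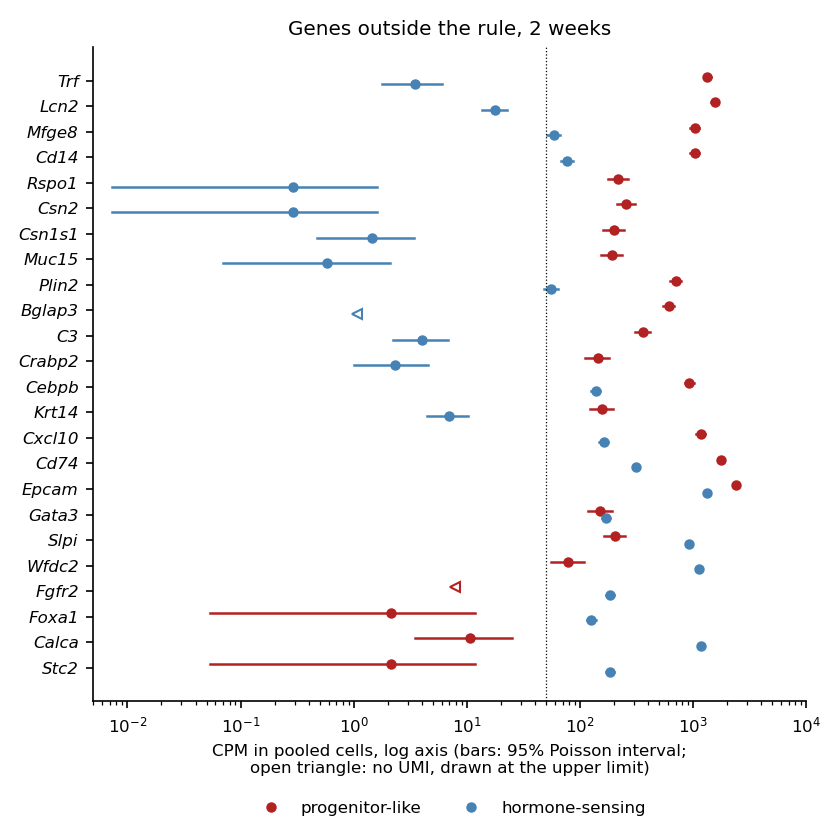
CPM (log axis) of 24 genes outside the rule in pooled progenitor-like (red) and hormone-sensing (blue) cells at 2 weeks, with 95% Poisson intervals; open triangles mark genes with no UMI at their upper limit, and the dotted line marks 50 CPM. Trf, Lcn2, Rspo1, the milk genes and Bglap3 lie to the right in red, Slpi to Stc2 lie to the right in blue, and Epcam and Gata3 lie close together.

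Milk protein genes were present at low level and in part of the cells. Of 10 such genes, 4 reached 50 CPM and all 4 were higher than in the hormone-sensing cells (11.6% of all tested genes were), with a median log2 ratio of 6.85. These 4 reached 50 CPM only in the progenitor-like cells, so none could have been called lower. Csn2, beta-casein, had 256 CPM (212 to 306) against 0.289 from 1 UMI, a ratio of 884 (156 to 35215). Csn1s2a had 171 against 0.578 from 2 UMIs (ratio 295, 79.0 to 2476), Csn1s1 198 against 1.45, and the milk fat globule mucin gene Muc15 had 192 against 0.578 from 2 UMIs (ratio 332, 89.2 to 2780). Lalba, needed to make lactose, had 12.8 CPM and the whey protein gene Wap 2.13. Csn2 was seen in 14 of 104 cells, 1 of them with 31 UMIs. After thinning, 18 of 83 progenitor-like cells (21.7%, 13.4 to 32.1) held at least 2 UMIs of the milk protein list, against 0.150% of hormone-sensing cells.

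Of 12 milk fat genes, Plin2, a lipid droplet coat protein, had 699 CPM (625 to 779) against 55.2 and was higher, and the desaturase gene Scd1 had 68.2 against 43.96. The other 10 were under 50 CPM in both classes. Of 8 prolactin and STAT5 signalling genes, 2 reached 50 CPM: the feedback inhibitor gene Socs2 was lower (25.6 against 61.3), and the phosphatase gene Ptpn1 had 85.3 against 157. Stat5a itself had 19.2 CPM (8.77 to 36.4) against 48.0, both under 50.

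The caseins detected here share a region of chromosome 5. The 5 genes Csn1s1, Csn2, Csn1s2a, Csn1s2b and Csn3 span it from 87666208 to 87932665 (GRCm38), a stretch of 266.458 kb. Outside the rule Csn1s1, Csn2 and Csn1s2a were higher, as given above, while Csn1s2b stayed under 50 CPM (4.26 against 0.578) and Csn3 belongs to the rule. Casein promoters were searched on both strands for the STAT5 motif TTCNNNGAA, in RefSeq windows of 300 bases from 250 before to 50 after the start. The table matched 3 caseins and all 3 held the motif, as did 2582 of 27025 genes of the table (9.55%). The 250 bases upstream of the start (GRCm38.p6) are shown for the 2 caseins whose match lies there, 5' to 3' in the direction of the gene, with the match in capitals. Csn1s1 (chr5:87665958-87666207, plus strand) has it 100 bases before the start and Csn2 (chr5:87699426-87699675, minus strand) 93 bases before it.
Csn1s1: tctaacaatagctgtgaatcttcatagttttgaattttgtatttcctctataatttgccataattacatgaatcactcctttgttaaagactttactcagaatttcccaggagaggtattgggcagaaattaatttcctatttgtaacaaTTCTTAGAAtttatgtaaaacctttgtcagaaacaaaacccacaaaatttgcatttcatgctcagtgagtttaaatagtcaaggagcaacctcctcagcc
Csn2: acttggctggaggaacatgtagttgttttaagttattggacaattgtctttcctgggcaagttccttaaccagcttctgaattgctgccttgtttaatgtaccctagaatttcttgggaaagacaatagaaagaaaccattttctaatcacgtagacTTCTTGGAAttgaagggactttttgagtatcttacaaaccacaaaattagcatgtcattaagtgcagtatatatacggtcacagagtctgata
A match describes the letters only. Over the 268 matched genes higher in the progenitor-like cells, 10.8% held the motif, beside 8.15% of all tested genes.

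Hormone-sensing genes outside the rule were mostly lower. Of 11 hormone-sensing genes outside the rule, 6 reached 50 CPM and 5 were lower, beside 6.18% of all tested genes, with a median log2 ratio of -4.45. Foxa1, the pioneer factor of the oestrogen receptor, had 2.13 CPM from 1 UMI against 126 (114 to 138), a 58.9-fold ratio (10.5 to 2332). Calca, which encodes calcitonin and a related neuropeptide, had 10.7 against 1174 CPM, and Stc2, a secreted stanniocalcin, had 2.13 from 1 UMI against 184 (ratio 86.4, 15.5 to 3420). Tbx3, a mammary transcription factor, had 4.26 against 61.0, and Wnt4, a progesterone-induced ligand, 14.9 against 66.8. These 5 genes reached 50 CPM only in the hormone-sensing cells, so none could have been called higher. The exception was Ly6a, the surface antigen Sca-1, with 1223 CPM against 964. Esr1, the oestrogen receptor, was under 50 CPM in both, at 6.39 and 45.1.

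By the ratio of CPM + 1, which ranks genes without a UMI by the added 1, the gene furthest down was Fgfr2, a fibroblast growth factor receptor. It had no UMI in the 104 cells, which allows up to 6.39 CPM, against 185 CPM (171 to 200) in the hormone-sensing cells, at least 28.9-fold lower. Other genes without a UMI in the members were Fam43a (119 CPM in the hormone-sensing cells, at least 18.6-fold lower), Fxyd2, a regulator of the sodium pump (100.1, at least 15.7-fold), the tetraspanin gene Tspan1 (93.1, at least 14.6-fold), the triglyceride enzyme gene Dgat2 (80.1, at least 12.5-fold) and Samd5 (74.9, at least 11.7-fold). Among genes seen in both classes, Calca, given above, was lower by a ratio of 110 (47.2 to 339) and R3hdml, with 2.13 CPM from 1 UMI against 296, by one of 139 (24.9 to 5499). The uroplakin gene Upk3a, with R3hdml, Fgb, Fgg and Ido1, belongs to a set of 6 genes singled out in earlier results of these data. These 5 were tested and all were lower, beside 6.18% of all tested genes (Fgg 8.53 against 377 CPM, Ido1 29.8 against 153). The set came from these same data and none of it reached 50 CPM in the members, so the count is a description only. In this set, Fgb and Fgg encode fibrinogen chains and Ido1 degrades tryptophan. The antioxidant gene Gpx3 and the cysteine enzyme gene Cdo1 each had 4.26 CPM from 2 UMIs, against 256 and 292.

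Luminal transcription factors differed gene by gene. Of 13 luminal transcription factors, 7 reached 50 CPM, 3 were higher (11.6% over all genes) and none lower, with a median log2 ratio of 0.83 beside 0.04. Cebpb, required for alveolar development, had 923 CPM (838 to 1014) against 138, Sox4 had 703 against 183, and Klf5 had 207 against 79.2. Gata3, the luminal fate factor, had 151 against 170, Sox9 315 against 177, and the rule's own Krt18 and Krt8 had log2 ratios under 1. Epcam, an epithelial adhesion molecule, had 2379 against 1329 CPM. Of 11 junction and keratin genes, 8 reached 50 CPM. Cldn1 was the 1 higher and Krt7 (245 against 513) the 1 lower, beside 11.6% and 6.18% of all tested genes.

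Receptors and the retinoid pathway differed gene by gene. The hepatocyte growth factor receptor gene Met was higher (78.9 CPM against 13.9), Fgfr2 lower, and Erbb3 had 63.9 against 75.5; the other 7 paracrine receptor genes were under 50 CPM, including Egfr at 21.3 CPM against no UMI. Of 12 retinoic acid genes, 2 reached 50 CPM and both were higher (11.6% over all genes), among them the carrier Crabp2 with 143 CPM (111 to 181) against 2.31. Crabp2 reached 50 CPM only in the progenitor-like cells and could not have been called lower. Of 10 Notch pathway genes none reached 50 CPM in either class.

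Acute-phase and antimicrobial genes split in direction. Complement C3 had 360 CPM (308 to 419) against 4.05, and Lbp, which hands lipopolysaccharide to Cd14, had 87.4 against no UMI (at least 101-fold). By contrast the protease inhibitor Slpi had 202 against 926 and Wfdc2 had 78.9 against 1116. Of 17 NF-kB and inflammation genes, 10 reached 50 CPM, 6 were higher (11.6% over all genes) and 1 was lower. The higher ones included Csf3, the neutrophil growth factor (128 CPM against 2.60), Csf1, the macrophage growth factor (63.9 against 3.76), and the chemokines Ccl2 (132 against 10.7) and Cxcl1 (350 against 49.7). Cxcl5 was lower (2.13 from 1 UMI against 59.6). Csf3, Csf1, Ccl2 and Cxcl1 reached 50 CPM only in the progenitor-like cells, so none of these could have been called lower. Cxcl5 reached it only in the hormone-sensing cells and could not have been called higher. Csf3 came from 7 of the 104 cells, with up to 30 UMIs in 1 of them, so its level describes few cells.

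Interferon-response genes were higher in the pooled progenitor-like cells. Of 20, 15 reached 50 CPM, 10 were higher and none lower, with a median log2 ratio of 1.29 beside 0.04 over all tested genes and 11.6% higher. Cxcl10 had 1164 CPM (1068 to 1266) against 161 and Cxcl9 1852 against 453; both encode chemokines that draw T cells. Irf7, an interferon-induced transcription factor, had 343 against 40.5, and the GTPase gene Gbp2 had 1324 against 526. With the 56 co-clustered cells over both sums added, a choice made after seeing the data, 5 instead of 10 were higher. Ifitm3 (2666 against 2322), which encodes a membrane protein that restricts virus entry, was within 2-fold. Of the 8 listed leukocyte markers, 7 were without a UMI in the members, and the list summed to 2.13 CPM, against 3.18 in the hormone-sensing cells. The rule had left out cells with a Ptprc UMI from both classes, which favours low leukocyte values in advance. Leukocyte RNA as a source of the interferon genes was not tested.

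The interferon signal varied from cell to cell. Thinned to 2000 UMIs, progenitor-like cells held a median of 13 UMIs of the list (0 to 103) and hormone-sensing cells 7 (0 to 75). The share with at least 3 UMIs was 83.1% (73.3 to 90.5) and 85.4% (82.5 to 88.0), and these intervals overlapped. Thinned to 1000 UMIs the shares were 76.9% (67.6 to 84.6) and 62.8% (59.3 to 66.2), and these intervals did not overlap. The call thus differed between settings. The 1000 UMI setting also keeps shallower cells that the 2000 UMI setting leaves out, so depth and the set of cells change together. Cxcl9 was seen in 44 of 104 cells, with up to 114 UMIs. Of 6 MHC class II genes, which present antigen to helper T cells, 4 reached 50 CPM and all 4 were higher, beside 11.6% of all tested genes. The invariant chain gene Cd74 had 1758 CPM (1640 to 1883) against 314 and H2-Ab1 had 669 against 80.1; per thinned cell the list had a median of 2 UMIs (0 to 42) against 0 (0 to 33). Of 9 tested MHC class I genes only the peptide transporter gene Tap1 was higher (149 against 60.4), a share near the 11.6% of all tested genes. B2m had 6978 and 6980 CPM.

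Promoters of the interferon list were searched on both strands for GAAANNGAAA, the core of the interferon-stimulated response element, in the same 300-base windows. Of 15 matched genes 9 held it (60%), as did 5 of the 8 matched ones that were higher, beside 1079 of 27025 genes of the table (3.99%) and 105 of 2369 tested genes (4.43%). Genes higher in the progenitor-like cells held it in 8.58% and genes lower in 2.19%. The 250 bases upstream of the start are shown for 3 of the higher genes, 5' to 3' in gene direction (GRCm38.p6, RefSeq), with the matches in capitals. Cxcl10 (chr5:92348890-92349139, minus strand) has its match 213 bases before the start, Gbp2 (chr3:142620413-142620662, plus strand) has one on the opposite strand 59 bases before it, and Isg15 (chr4:156200819-156201068, minus strand) has 3 overlapping matches from 78 bases before it.
Cxcl10: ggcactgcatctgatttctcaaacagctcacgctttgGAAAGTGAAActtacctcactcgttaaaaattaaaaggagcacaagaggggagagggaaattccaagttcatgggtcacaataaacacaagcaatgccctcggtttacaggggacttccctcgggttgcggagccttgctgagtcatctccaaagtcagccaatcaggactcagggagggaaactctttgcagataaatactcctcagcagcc
Gbp2: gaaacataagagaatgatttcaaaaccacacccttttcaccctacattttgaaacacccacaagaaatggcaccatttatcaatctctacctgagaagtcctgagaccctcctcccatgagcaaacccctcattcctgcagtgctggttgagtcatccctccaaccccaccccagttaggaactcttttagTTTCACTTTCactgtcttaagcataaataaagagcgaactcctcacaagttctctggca
Isg15: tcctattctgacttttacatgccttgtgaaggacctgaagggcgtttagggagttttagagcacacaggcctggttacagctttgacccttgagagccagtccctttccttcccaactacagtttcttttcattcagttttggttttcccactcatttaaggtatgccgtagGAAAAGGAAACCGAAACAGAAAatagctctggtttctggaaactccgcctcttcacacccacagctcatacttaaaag
Isg15 encodes a ubiquitin-like protein and had 394 CPM (340 to 455) against 106. A match does not show binding.

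**Figure D3:**
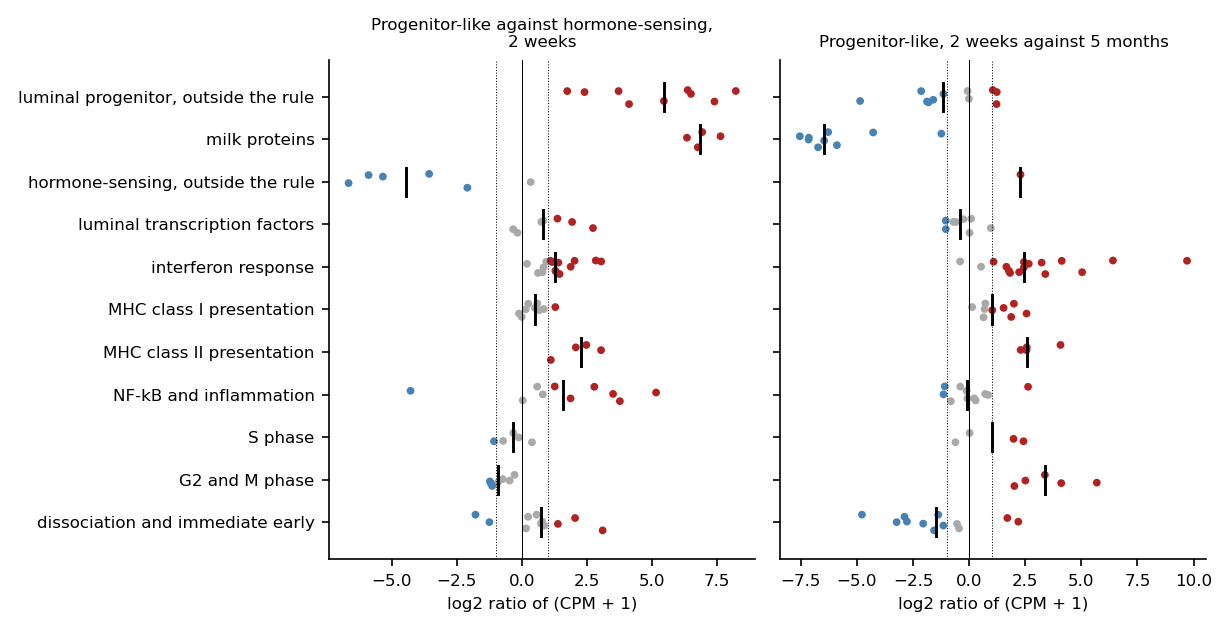
Log2 ratio of CPM + 1 for each list gene that reached 50 CPM, progenitor-like against hormone-sensing cells at 2 weeks (left) and progenitor-like cells at 2 weeks against 5 months (right); red is at least 2-fold higher, blue at least 2-fold lower, black bars are list medians and dotted lines mark 2-fold. Milk protein genes lie to the right on the left panel (median 6.85) and to the left on the right panel (median -6.47), and interferon genes lie to the right on both (1.29 and 2.44).

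Some cell division genes were lower. Of 17 G2 and M phase genes, 7 reached 50 CPM, 3 were lower (6.18% over all genes) and none higher: the centromere genes Cenpa (61.8 against 146 CPM) and Cenpf (40.5 against 90.2) and the cyclin gene Ccnb2 (29.8 against 69.4). Cenpf and Ccnb2 reached 50 CPM only in the hormone-sensing cells, so neither could have been called higher. Top2a, which untangles replicated DNA, had 113 (84.6 to 148) against 189. Of 15 S phase genes, 5 reached 50 CPM and the 1 lower was Rrm2 (25.6 against 54.7), beside 6.18% of all tested genes. Rrm2 too reached 50 CPM only in the hormone-sensing cells. Thinned to 2000 UMIs, 22.9% (14.4 to 33.4) of progenitor-like and 27.0% (23.7 to 30.6) of hormone-sensing cells held at least 3 UMIs of the G2 and M phase list, and the intervals overlapped. As deposited the shares were 25.0% and 35.0%.

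Of 15 p53 target genes, 7 reached 50 CPM. Phlda3, an Akt inhibitor (74.6 CPM against 23.1), was the 1 higher and Trp53inp1 (53.3 against 109) the 1 lower, beside 11.6% and 6.18% of all tested genes. The cell cycle inhibitor gene Cdkn1a had 401 against 207. None of 15 homologous recombination genes reached 50 CPM. Of 12 stress and immediate early genes, 11 reached 50 CPM. The heat shock genes Hspa1a (1603 against 185) and Hspa1b (277 against 66.2) and Ier3 (249 against 94.6) were higher, beside 11.6% of all tested genes. Fos (147 against 349) and Fosb (19.2 against 68.3) were lower, beside 6.18%. Such genes respond to cell isolation, and their part in the other differences was not tested.

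Markers of other cell types were low in the 104 cells. Of 13 basal genes only Krt14 reached 50 CPM, and it was higher (156 CPM, 122 to 196, against 6.94), from 18 of 104 cells with up to 19 UMIs. The defining basal genes Krt5, Trp63 and Oxtr had no UMI, and 7 of the 13 had none. After thinning, 8 of 83 progenitor-like cells (9.64%, 4.25 to 18.1) held at least 2 UMIs over Krt5, Krt14, Krt15 and Krt17, against 1.80% (0.934 to 3.13) of hormone-sensing cells; at 1000 UMIs the shares were 0.962% and 1.04%. The fibroblast list summed to 10.7 CPM (6 of 8 genes without a UMI) and was higher in hormone-sensing cells through Dcn (8.53 against 241). The endothelial list summed to 25.6 CPM, 21.3 of it from Pecam1, with Cdh5 at 0, against a sum of 2.60 CPM in the hormone-sensing cells.

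Within the group the progenitor genes did not rise and fall as one. Over the 83 thinned cells, which share a library and a depth, Csn3 went with Trf (Spearman rho 0.57) and Lcn2 (0.50), and Aldh1a3 went with Plet1 (0.53) and Krt14 (0.34). Csn3 and Wfdc18, the most abundant genes of the rule, were inversely related (rho -0.35), as were Wfdc18 and Trf (-0.36) and Csn3 and Krt14 (-0.37). Cxcl9 went with Gbp2 (0.64), Cd74 (0.59) and Ly6i (0.52) and ran against Aldh1a3 (-0.32) and Plet1 (-0.34). These are descriptions of sparse counts, and the rule's sum can itself set genes against each other. Csn3, Trf and Lcn2 together held a median of 12 UMIs per thinned cell (0 to 87), and 6 of the 83 cells had none.

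**Figure D4:**
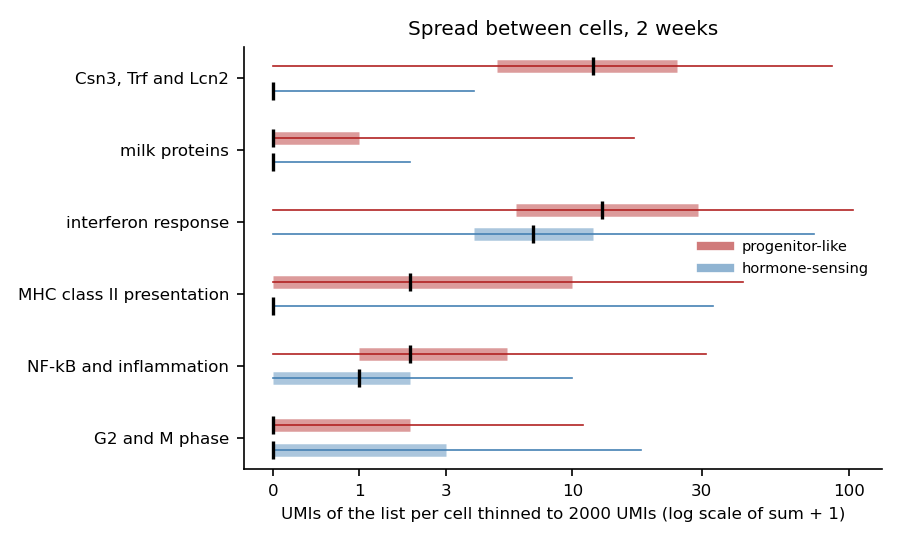
UMIs of 6 gene lists per cell at 2 weeks after thinning to 2000 UMIs (log scale of the sum + 1), for 83 progenitor-like (red) and 666 hormone-sensing (blue) cells; black ticks are medians, thick bars quartiles, thin lines the range. The medians are 12 against 0 for Csn3, Trf and Lcn2, 13 against 7 for interferon genes and 0 against 0 for milk proteins, whose upper range reaches 17 in progenitor-like cells.

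The same rule was applied to the other libraries to see where such cells occurred. It took 352 of 431 luminal cells at 5 months (81.7%, 77.7 to 85.2), 257 of 397 in tumour 1 (64.7%, 59.8 to 69.4) and 237 of 415 in tumour 2 (57.1%, 52.2 to 61.9), against 9.18% at 2 weeks. Hormone-sensing cells numbered 21, 7 and 5 there. The sorts differ (YFP+, YFP+ with CD45+, and live tumour cells), as do depths, with medians of 3673.5, 4286.5, 14577 and 7822 UMIs in the progenitor-like cells, so these shares are not a rate of change.

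At 5 months the class difference could be read again, in other cells and with only 21 hormone-sensing cells. There 599 of 3008 tested genes (19.9%) were higher and 498 (16.6%) lower in progenitor-like cells. Of the 12 genes with the largest upward ratio at 2 weeks, 10 reached 50 CPM at 5 months and all 10 were higher, among them Trf (5885 CPM against 38.6), Spp1 (7333 against 38.6) and Bglap3 (401 against no UMI, at least 13.8-fold). Of the 12 downward, 8 reached 50 CPM and all 8 were lower, among them Calca (0.606 CPM from 1 UMI against 695, a ratio of 1146, 199 to 45898) and Fgfr2 (6.06 against 106 CPM). Trf, Spp1, Bglap3, Calca and Fgfr2 each reached 50 CPM there in a single class, so none could have been called the other way.

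The second question was how progenitor-like cells at 2 weeks compared with those at 5 months. Of 3060 tested genes, 525 (17.2%) were higher at 2 weeks and 327 (10.7%) lower, with a median log2 ratio of 0.28. With TMM scaling, an alternative to total UMIs, 274 were higher and 509 lower and the median was -0.11, so the higher share of called genes was 61.6% or 35.0% by scaling. Time, library and sort cannot be told apart here, nor can any difference in reference annotation, on which the sources used here give only the build; the 5 months library lists 694 genes that the other 3 lack. Among 76 ribosomal protein genes, 18 were lower and 8 higher at 2 weeks (Fau 49.0 against 2970 CPM), and the same 18 were at least 2-fold apart in hormone-sensing cells (Fau 48.9 against 3542). In the tumours, which list the same genes as the 2 weeks library, progenitor-like cells also had more of all 18, with Fau at 3929 and 4421 CPM. The leukocyte list summed to 2.13 CPM at 2 weeks and 122 at 5 months, where leukocytes were co-sorted, and its part in the results was not tested.

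Milk protein genes separated the 2 times most. Of 10, 9 reached 50 CPM and all 9 were lower at 2 weeks, also with TMM (10.7% of all genes lower), with a median log2 ratio of -6.47, or -5.89 with unseen genes at their bound. Csn2, Csn1s1, Csn1s2a and Muc15 reached 50 CPM at both times. The others tested did so only at 5 months and could not have been called higher at 2 weeks. Csn2 had 256 CPM (212 to 306) at 2 weeks and 22696 (22466 to 22927) at 5 months, and Csn1s2a had 171 and 24510. Lalba had 12.8 and 1953, and Wap 2.13 from 1 UMI and 332 (ratio 156, 27.9 to 6168). Glycam1, a milk mucin, had no UMI at 2 weeks and 186 CPM at 5 months, at least 29.1-fold lower. At 5 months 90.3% (86.6 to 93.3) of thinned cells held at least 2 UMIs of the list, against 21.7% at 2 weeks.

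Several progenitor genes were lower at 2 weeks. Among the rule's genes, given without a test, Csn3, Wfdc18 and Elf5 had 5298, 5168 and 53.3 CPM at 2 weeks and 15200, 16279 and 159 at 5 months, whereas Aldh1a3 had 409 and 127 CPM. Plet1 had 1569 and 2937 and Kit 49.0 and 59.4. Of the 17 outside the rule, 11 reached 50 CPM and 6 were lower at 2 weeks by either scaling, beside 10.7% of all genes, among them Ltf (89.5 against 2629), Trf (1336 against 5885) and Mfge8 (1034 against 3635). By total UMIs 3 were higher, beside 17.2% of all genes (Rspo1 217 against 92.8, Cd14 1029 against 495, Tspan8 107 against 44.9), and with TMM none was. Of 10 acute-phase genes, 8 reached 50 CPM and 5 were lower at 2 weeks by either scaling (10.7% of all genes were by total UMIs), with the serum amyloid gene Saa2 at no UMI against 183 CPM (at least 28.6-fold). Saa2 reached 50 CPM only at 5 months and could not have been called higher at 2 weeks.

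Interferon genes were higher at 2 weeks. Of 20, 16 reached 50 CPM and 14 were higher, 13 with TMM, beside 17.2% of all genes. Cxcl9 had 1852 CPM (1731 to 1979) at 2 weeks and 1.21 from 2 UMIs at 5 months, a ratio of 1527 (422 to 12633). Cxcl10 had 1164 and 12.7, Gbp2 1324 and 39.4, and the ubiquitin-like Ubd, induced by interferon gamma, 2440 and 57.0. Cxcl9, Cxcl10 and Gbp2 reached 50 CPM only at 2 weeks, so none of these could have been called lower there. Ubd reached it at both times. Of 9 tested MHC class I genes 5 were higher (4 with TMM), such as the immunoproteasome gene Psmb9 (458 against 77.0), and of 4 tested class II genes all 4 were higher by either scaling. Thinned cells with at least 3 interferon UMIs were 83.1% at 2 weeks and 29.3% (24.5 to 34.5) at 5 months.

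Division genes were also higher at 2 weeks: all 5 tested G2 and M phase genes, or 4 of 4 with TMM, beside 17.2% of all genes by total UMIs, with Top2a at 113 CPM (84.6 to 148) against 1.21 from 2 UMIs, a ratio of 93.2 (24.5 to 789), and Ube2c at 162 against 8.49. No gene of that list reached 50 CPM at 5 months, so none tested could have been called lower at 2 weeks. At least 3 UMIs of that list were held by 22.9% of thinned cells at 2 weeks and 0.906% (0.187 to 2.63) at 5 months. Of 12 stress and immediate early genes, 8 were lower at 2 weeks by either scaling, beside 10.7% of all genes by total UMIs (Fosb 19.2 against 553 CPM, Dusp1 49.0 against 368) and 2 higher (Hspa1a, Hspa1b). Fosb and Dusp1 reached 50 CPM only at 5 months and could not have been called higher at 2 weeks. The values of the stress and immediate early genes moved beside the other groups, and their part was not tested.

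Across all 4 libraries, cells of the rule kept its genes at unlike levels. Aldh1a3 had 409 CPM at 2 weeks, 127 at 5 months, 16.9 in tumour 1 and 33.3 in tumour 2, and Plet1 had 1569, 2937, 233 and 448. Csn3 had 5298, 15200, 1392 and 4012, and Wfdc18 had 5168, 16279, 4946 and 6775. Csn2 had 256, 22696, 14.1 and 0, while Lcn2 had 1547, 3430, 4753 and 5904. Cxcl9 had 1852 CPM at 2 weeks and between 0.965 and 6.56 in the other 3 libraries. Vim, a mesenchymal intermediate filament, had 6.39, 22.4, 275 and 414. Progenitor-like cells at 2 weeks thus had the highest Aldh1a3, Rspo1, Cd14 and Cxcl9 and the lowest Lcn2 and Vim of the 4. Each group is 1 library or, for tumours, 2. Aldh1a3, Plet1, Csn3 and Wfdc18 chose the cells, so their levels are a description only. The rule asks for the same UMI sum at every depth, with medians from 3673.5 UMIs at 2 weeks to 14577 in tumour 1. How far the rule and depth set these levels was not tested.

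**Figure D5:**
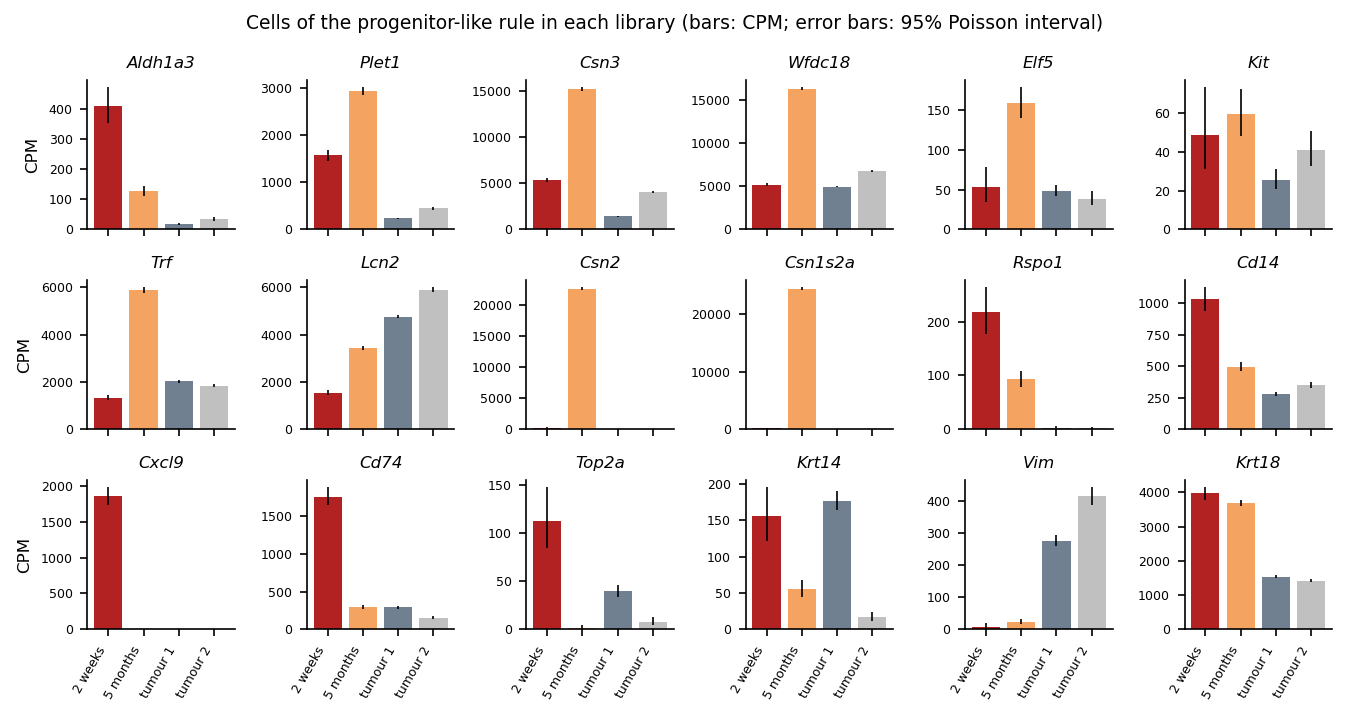
CPM of 18 genes in pooled cells of the progenitor-like rule in each library (104, 352, 257 and 237 cells), on linear axes from 0, with 95% Poisson intervals. The 2 weeks bar is highest for Aldh1a3, Rspo1, Cd14, Cxcl9, Cd74 and Top2a, the 5 months bar for Csn3, Csn2, Csn1s2a and Trf, and the tumour bars for Lcn2 and Vim.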

How the data were processed

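The kit was Chromium Single Cell 3' v2, per the labels' protocols. The submitters' processing notes name Cell Ranger, with no version given in the sources used here, and the build mm10, also called GRCm38. The authors deposited UMI counts per gene and barcode. The mm10 prefix was removed and the 27998 genes shared by the 4 libraries were used; 694 genes listed at 5 months alone were left out of the comparisons.

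The members, the 25 gene lists outside the rule and the alternatives were chosen with earlier results of these data known. Counts were summed per class and scaled to CPM by total UMIs. A gene was tested at 50 CPM in either class and called at 2-fold on (CPM + 1). Genes named were the rule's genes, Trp53 and Brca1, the 12 largest ratios in each direction, up to 6 members of each list by ratio, and markers of other cell types; further list members and comparison genes were named after their values were seen. Some genes of the lists are not reported here. Shares used cells thinned to 2000 UMIs (seed 1). A floor is 3 UMIs per pool. Clustering used scanpy 1.11.5 (10000 counts per cell, 2000 variable genes, 30 components, 15 neighbours). Scrublet's automatic threshold called 4 barcodes, too few to be of use, so scores were ranked at 0.8% per 1000 barcodes and removal was an alternative only. TMM factors came from edgeR 4.0.16, used for scaling only. The size rule was tested on simulated data. No model of free RNA was used.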

Additional observations from a re-analysis of the deposited data

Results flagged for a closer look

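In 6 genes the difference between progenitor-like and hormone-sensing cells pointed one way at 2 weeks and the other at 5 months, by at least 2-fold each time. The difference between times was not tested, and the 5 months comparison holds 21 hormone-sensing cells. On log2 (CPM + 1), progenitor-like minus hormone-sensing, Cd74 was 2.48 at 2 weeks and -2.04 at 5 months, H2-Ab1 was 3.05 and -1.91, and H2-Aa was 2.08 and -2.90. These MHC class II values rest on 127, 44 and 58 UMIs in the hormone-sensing cells at 5 months, where the leukocyte list summed to 965 CPM against 122 in the progenitor-like cells. The GTPase gene Iigp1 was 1.11 and -2.07 (19 UMIs), the chemokine gene Ccl2 was 3.51 and -1.67 (7 UMIs), and the protease inhibitor gene Slpi was -2.19 and 2.44 (4 UMIs).

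The 694 genes listed at 5 months alone, which no comparison uses, held 0.0592% of the UMIs of the progenitor-like cells there (977 UMIs, 575 of them of the immunoglobulin gene Igkc). The 2 weeks library has no value for them.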

How the results depend on the processing

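Of 263 values under alternatives for the main results, 226 stayed within their spread or 1.5-fold and 37 moved. No single value was labelled reversed, but each count was judged by itself. Between 2 weeks and 5 months the balance did turn over: more genes were higher by total UMIs (525, against 327 lower), and more were lower with TMM. For single genes 179 of 1768 moved and none reversed. Against hormone-sensing cells, 749 genes were higher and 503 lower at a 20 CPM minimum, and 199 and 84 at 100 CPM, where 3 hormone-sensing and 1 G2 and M phase gene were lower. Lower genes numbered 311 with cells thinned before summing and 120 with the co-clustered cells over both sums added (chosen after seeing the data), which left 5 interferon genes higher. Between 2 weeks and 5 months, 274 were higher and 509 lower with TMM, which left 0 of 3 progenitor genes higher, 1095 and 609 at 20 CPM, and 277 and 187 at 100 CPM. G2 and M phase genes higher at 2 weeks were 13 at 20 CPM and 3 at 100 CPM, with thinned cells and with mean per-cell CPM. A progenitor sum of 5 gave 57.7% and 51.8% of luminal cells in the tumours, and the rule on thinned cells gave 86.4% at 5 months and 57.7% in tumour 1. As deposited, at least 3 G2 and M phase UMIs were in 35.0% of hormone-sensing cells, interferon calls in 92.3% of progenitor-like, 91.7% of hormone-sensing and 54.0% of 5 months cells, basal keratin calls in 3.62% of hormone-sensing cells, and milk calls in 39.4% of progenitor-like cells. Thinned to 1000 UMIs, G2 and M phase calls fell to 6.73% and 13.7% of the classes, interferon calls to 62.8% of hormone-sensing and 14.5% of 5 months cells, basal keratin calls to 0.962% of progenitor-like cells, and milk calls to 0% and 84.7% of hormone-sensing and 5 months cells. Fewer UMIs per cell lower such shares by construction, and the cells kept also change with the depth. Elsewhere the cause was not tested. No paired analysis was possible because no result comes from a test and each condition before tumours is 1 library. The pool of 104 cells limits what is seen to about 6.39 CPM.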
